A study of Mus musculus with 16 samples.

Results

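Voltage-gated sodium channel subunit genes were followed in RNA sequencing of mouse spleen. The set was chosen by gene symbol and holds 8 of the 54838 genes in the count table: the alpha subunit genes *Scn1a*, *Scn2a*, *Scn3a*, *Scn4a*, *Scn7a* and *Scn9a*, and the beta subunit genes *Scn3b* and *Scn4b*. The 16 samples came from spleens of C57BL/6 mice, and the labels give no age, genotype or treatment. In 8 samples, called size-selected, the RNA is that of cells held back by a strainer after enzymatic digestion and red blood cell lysis, and the labels name the source as spleen glia. The other 8 are whole spleen, for which no separate preparation is described. Each sample number occurs once in each group, 4 numbers are male (407, 408, 427, 435) and 4 are female (436, 445, 447, 460), and the labels do not say that a number is 1 animal. The p-values therefore measure the spread between these samples.

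A voltage-gated sodium channel is a pore-forming alpha subunit that opens when the membrane depolarises and lets sodium into the cell, which starts the action potential in nerve and muscle. Beta subunits are small membrane proteins with an immunoglobulin-like outer domain that change the gating of the alpha subunit and also act in cell adhesion. *Scn7a* encodes an atypical alpha subunit, described in glia as a sensor of sodium concentration rather than as a classic voltage-gated channel. Spleen receives sympathetic nerve fibres, which non-myelinating Schwann cells accompany.

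Total estimated counts ranged from 13119992 to 19944440 in the size-selected samples and from 12153770 to 16282454 in whole spleen. Of 14 glia marker genes, 11 passed the count filter and 10 of those rose with size selection, as did 37.5% of all genes tested. All tested markers of fibroblasts (8 of 8), smooth muscle and mural cells (8 of 8), endothelium (7 of 7) and mesothelium (6 of 6) rose too, against the same share of all genes. Of 10 neuron markers 5 passed the filter and rose, where 37.5% of all genes tested did. *Th*, which marks sympathetic neurons, was at 0 in all 16 samples. *Dbh*, *Snap25*, *Elavl4* and *Nefl* were short of the filter too, and all but *Nefl* were at 0 in whole spleen. Genes near 0 in whole spleen can pass the filter only through the size-selected group. Counts of rises among genes past it therefore lean upwards, here and in the lists below. Whole spleen sample 427 had the highest sums of fibroblast, mural and endothelial markers of its group (58, 78.1 and 181.2 CPM, counts scaled to a common library size), and without number 427 the log2 fold changes given for the members were 7.99 for *Scn7a*, 4.09 for *Scn3b*, 2.81 for *Scn4b* and -0.83 for *Scn4a*. In these mixed samples, fewer cells of a type cannot be told apart from less RNA per cell.

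Of the 8 members, 4 passed the filter on low counts. *Scn7a*, *Scn3b* and *Scn4b* were higher in the size-selected samples, where 37.5% of the 14510 tested genes were called higher. *Scn4a* was lower, as were 30.4% of the genes tested. A call here has a Benjamini-Hochberg adjusted p under 0.05 in the edgeR quasi-likelihood test over all genes tested, and the median log2 fold change over all of them was 0.05. The 3 genes that rose did not overlap between the groups, as held for 23.4% of genes in that direction. Members short of the filter were read from a fit without one, in which 25.3% of 28235 genes were called higher: there *Scn2a* was higher and *Scn3a* was not called. *Scn1a* and *Scn9a* each had 1 count among the 16 samples.

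**Figure D1:**
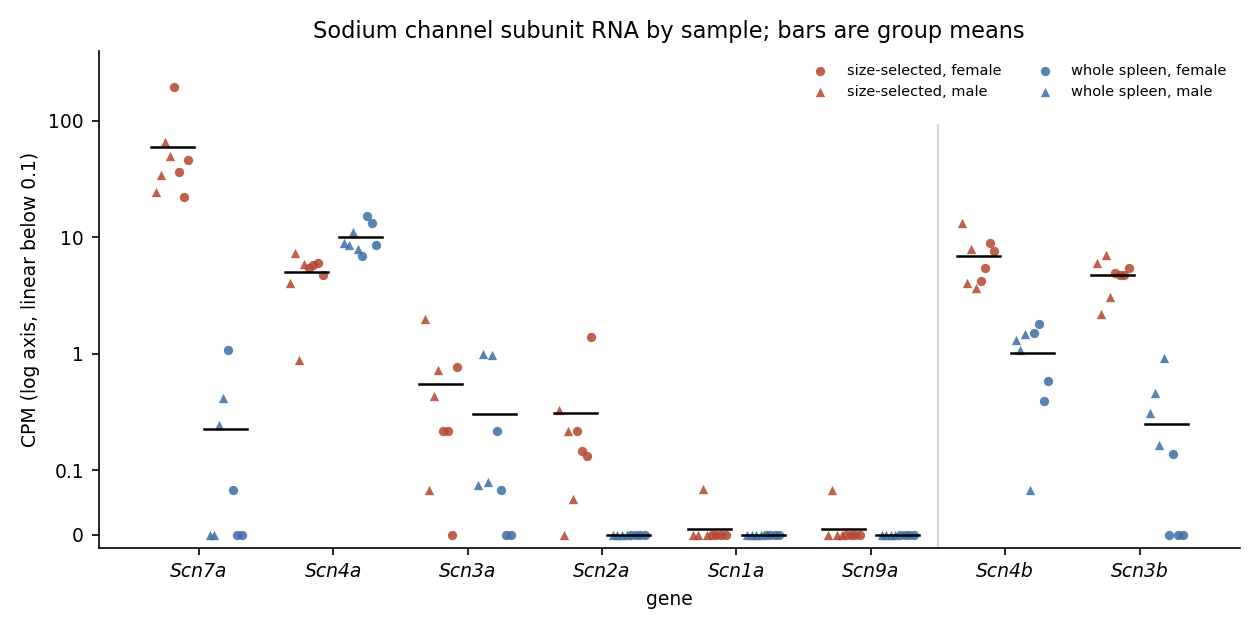
Library-scaled counts (CPM, log axis that is linear below 0.1) of the 8 members in every sample, with alpha subunit genes left of the grey line and beta subunit genes right of it. Colours are the groups, circles are female and triangles male samples, and bars are group means; *Scn7a* in the size-selected samples runs from 22.3 to 194.8 CPM while no whole spleen sample exceeds 1.08 CPM.

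*Scn7a* (ENSMUSG00000034810, chromosome 2, 66673425 to 66784914, minus strand, GRCm38) was the most abundant member in the size-selected samples. Its counts there were 371, 495, 920 and 897 in male samples 407, 408, 427 and 435, and 3579, 502, 335 and 955 in female samples 436, 445, 447 and 460. In whole spleen, in the same order, they were 0, 0, 3, 6, 15, 1, 0 and 0. Every size-selected sample was far above every whole spleen sample, and number 436 was the highest of both groups. The level averaged 59.3 ± 56.5 CPM against 0.227 ± 0.377 CPM (SD, n = 8 each), a ratio of means of 261.8. The log2 fold change was 8.0 (SE 0.69, edgeR adjusted p = 1.04e-08), the rise was seen in 8 of 8 pairs, and it ranked 53 of 14510 by size of rise.

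Sample 436 held 44.4% of all size-selected counts of *Scn7a*. Without it the level was 40 ± 15.3 CPM (SD over the other 7 samples), from 22.3 to 65.9, and without number 436 in both groups the log2 fold change was 8.5. The median over all 8 samples was 41.3 CPM. The rise was thus present in every sample, but the mean and its SD were set by 1 of them. With the sample number as a block the SE fell to 0.32 around a log2 fold change of 8.13. The authors' deposited table gives 8.03 (SE 0.87) for this gene, with mean TPM of 9.77 and 0.03.

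*Scn4a* (ENSMUSG00000001027, chromosome 11, 106318592 to 106353288, minus strand), the alpha subunit of skeletal muscle, was the only member that fell in the size-selected samples. Its values there were 4.06, 7.33, 0.889 and 5.88 CPM in male samples 407, 408, 427 and 435, and 5.48, 5.8, 5.96 and 4.75 CPM in female samples 436, 445, 447 and 460. In whole spleen they were 9.02, 8.54, 11.1, 7.99, 6.97, 15.3, 13.3 and 8.61 CPM in the same order. Each size-selected sample lay below its whole spleen partner, although the groups overlapped (11.6% of genes were lower with no overlap), and number 427 was far below the rest. The means were 5.02 ± 1.92 and 10.1 ± 2.88 CPM (SD, n = 8 each), which is 2.01-fold lower, or -1.01 on the log2 scale (SE 0.28, adjusted p = 0.00432 by edgeR). Without number 427 it was -0.83 (adjusted p = 0.0013).

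*Scn4a* was also the one member whose deposited size-selected values had been scaled. The size-selected values of 3898 genes in the table are estimated counts multiplied by constants, and *Scn4a* carries a constant between 0.77 and 0.858 depending on the sample. No label or header mentions the step. With the constants divided out, the means were 5.86 ± 2.28 and 9.9 ± 2.82 CPM, a 1.69-fold difference, and the log2 fold change was -0.76 (edgeR adjusted p = 0.0257). On that scale 7 of 8 pairs were lower, against 8 of 8 as deposited. The fall kept its call on both scales, and part of its size came from the constants.

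Skeletal muscle markers did not account for much RNA in either group. Of 7, *Myh4*, a fast muscle myosin, was at 0 in all 16 samples and *Tnnc2*, a fast muscle troponin, was at 0 in whole spleen. Their summed level ran from 3.27 to 8.62 CPM after size selection and from 1.88 to 9 CPM without it, and their members did not move together. Of the 2 that passed the filter *Mylpf* fell (log2 fold change -1.03, adjusted p = 0.0105) and *Neb* was not called. In the fit without a filter *Acta1* (3.06, adjusted p = 0.000826), *Ckm* (2.38, adjusted p = 0.00123) and *Tnnc2* (3.01, adjusted p = 0.0457) were higher in the size-selected samples. Markers of several blood cell types were lower along with *Scn4a*, where 30.4% of all genes were: 4 of 5 for B cells (median log2 fold change -0.75), 5 of 6 for T cells (-1.53) and 4 of 5 for neutrophils (-1.44). Other blood cell lists were not: 5 of 5 megakaryocyte markers (1.67) and 4 of 6 macrophage markers (1.19) were called higher, where 37.5% of all genes were, and 1 of 5 erythroid markers was lower with the other 4 not called. The B cell sum ran from 705.1 to 2587.3 CPM after size selection and from 3581.0 to 5136.1 CPM without it, and sample 427, the lowest for *Scn4a*, was also the lowest in this sum and in the T cell sum (150.2 CPM). The part of B cell and T cell content in the fall was not tested.

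*Scn4a* also has a B cell gene as its neighbour. *Cd79b*, a component of the B cell receptor, starts 3.83 kb downstream of it on the same strand. Its level was 593.0 ± 241.9 CPM in the size-selected group, against 1652.2 ± 333.1 CPM for whole spleen, or -1.48 on the log2 scale (SE 0.24, adjusted p = 2.49e-05 by edgeR). *Prr29*, the nearest gene on the other side, was near 0 in both groups (means of 0.0396 and 0.0191 CPM). Of the nearest genes of *Scn3b*, *Gramd1b* (1.61 kb away) rose by 1.16 on the log2 scale and *Zfp202* was not called. Those of *Scn4b* were short of the filter. A link between the levels of *Scn4a* and *Cd79b* was not tested. The neighbours and the marker sums were looked at after the *Scn4a* values were known.

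*Scn3b* (ENSMUSG00000049281, chromosome 9, 40269217 to 40291618, plus strand) encodes a beta subunit found in nervous tissue and heart. It measured 5.99, 2.21, 7.09 and 3.08 CPM in the male and 4.95, 4.75, 4.79 and 5.48 CPM in the female size-selected samples, in order of number. In whole spleen the males had 0.311, 0.458, 0.163 and 0.911 CPM and the females 0, 0.137, 0 and 0 CPM. The groups did not overlap, and the 4 female size-selected samples lay close together while the males were spread to both sides of them. The means of 4.79 ± 1.55 and 0.248 ± 0.314 CPM (SD, n = 8 each) differed 19.4-fold, or 4.25 on the log2 scale (SE 0.56, adjusted p = 2.19e-06 by edgeR) and a rise in 8 of 8 pairs. Sample 435 held 13 of the 27 whole spleen counts, and without number 435 the log2 fold change was 5.03. The authors' deposited table gives 3.74, with mean TPM of 1.74 and 0.109.

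*Scn4b* (ENSMUSG00000046480, chromosome 9, 45138395 to 45154152, plus strand) encodes a beta subunit that is linked to the alpha subunit by a disulfide bond. In order of number, size-selected males had 13.3, 4.08, 7.95 and 3.64 CPM and females 4.24, 5.41, 8.85 and 7.64 CPM. Whole spleen males had 1.32, 1.07, 1.47 and 0.0701 CPM and females 1.51, 1.79, 0.392 and 0.578 CPM. The lowest size-selected value was above the highest whole spleen value. The means of 6.89 ± 3.25 and 1.02 ± 0.611 CPM (SD, n = 8 each) differed 6.72-fold, or 2.75 on the log2 scale (SE 0.42, adjusted p = 1.18e-05 by edgeR). Unlike *Scn7a* and *Scn3b* it was above 0 in all 8 whole spleen samples, and it is not in the authors' deposited table, whose lowest log2 fold change is 3.5.

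**Figure D2:**
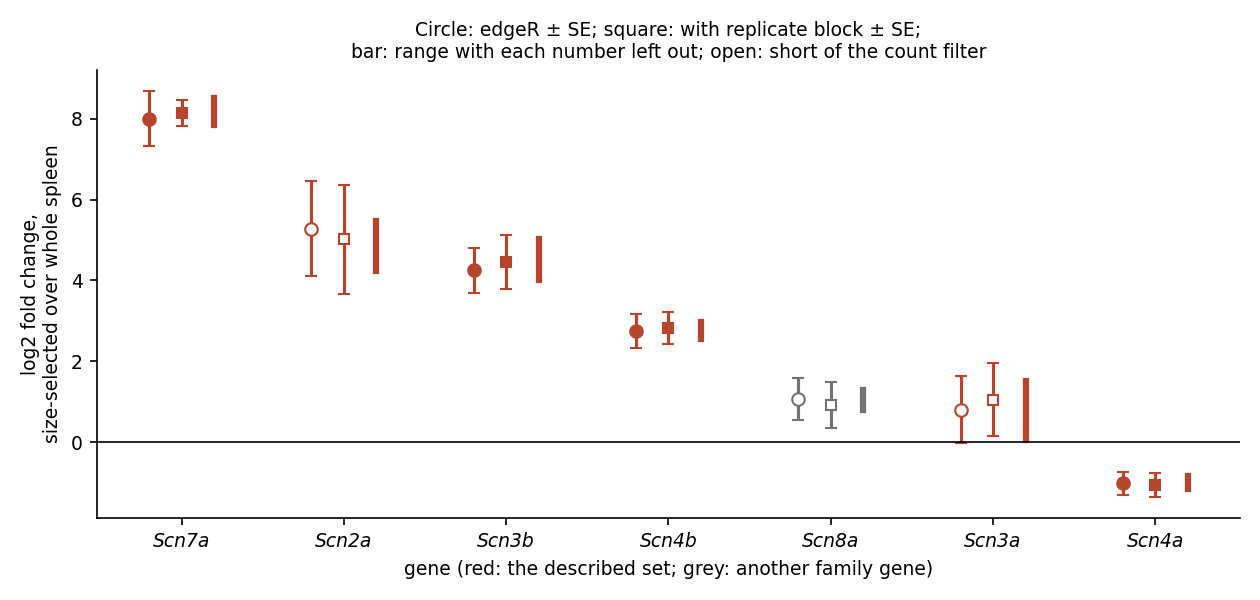
Log2 fold changes of size-selected over whole spleen (vertical axis) for 6 members (red) and *Scn8a* (grey): circles are edgeR values and squares values with the replicate block, both ± SE, and bars span the values with each number left out. Open symbols are genes short of the count filter; *Scn7a* stands at 8.0, *Scn3b* at 4.25, *Scn4b* at 2.75 and *Scn4a* at -1.01.

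The other 4 alpha members are known mainly from neurons. *Scn2a*, an alpha subunit of central neurons, had 5, 0, 3, 1, 4, 2, 2 and 29 counts in size-selected samples 407, 408, 427, 435, 436, 445, 447 and 460, and 0 in all whole spleen samples. Sample 460 held 63% of these counts, and 7 of 8 pairs were higher in the size-selected sample. Relative to the group totals, its 46 size-selected counts are at least 14.5-fold higher than 3 counts over the whole spleen group would be, the limit that a count of 0 allows. Without sample 460 they are at least 6.37-fold higher. In the fit without a filter the edgeR adjusted p was 0.00162. The authors' deposited table lists the gene as Scn2a1, with mean TPM of 0.0925 and 0.

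*Scn3a*, an alpha subunit best known from the developing brain, had 30, 1, 6, 13, 4, 3, 0 and 16 counts in the size-selected samples. Whole spleen had 1, 13, 1, 14, 3, 1, 0 and 0 counts in the same order of numbers. The groups overlapped almost fully, with a higher size-selected value in 5 pairs and a lower one in 2. The log2 fold change was 0.81 (SE 0.83, edgeR adjusted p = 0.427), and leaving out number 407 or 408 gave 0.05 or 1.51, the extremes. No difference was detected beyond the spread between samples.

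*Scn1a*, an alpha subunit of inhibitory neurons of the brain, had 1 count, in size-selected sample 427. *Scn9a*, which is prominent in sensory and sympathetic neurons, had 1 count, in size-selected sample 408. Both lay under the level that a group total of 3 counts gives (0.0242 CPM in the size-selected group), so no fold is given. The alpha genes are similar in sequence, and how reads shared between them were assigned is not given in the sources used here.

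Beside each other on the genome, these genes had very different levels. *Scn3a*, *Scn2a*, *Scn1a*, *Scn9a* and *Scn7a* lie in this order within 1327.8 kb of chromosome 2 (65457118 to 66784914, GENCODE M21), and *Scn7a* and *Scn9a* are 38.5 kb apart on the same strand. Their size-selected counts were 8054 and 1. Of the 14 other genes annotated in the interval, *Galnt3*, a glycosyltransferase gene, rose by 0.78 on the log2 scale (SE 0.21, edgeR adjusted p = 0.00317) and *Ttc21b*, a cilium gene, by 1.46 (SE 0.31, adjusted p = 0.000422). *Csrnp3* had 4 counts, all in whole spleen, and the other 11 were at 0 in all samples. On the side of *Scn3a*, the nearest protein-coding gene outside the interval, *Slc38a11*, a putative amino acid transporter gene, had 304 counts in the size-selected and 4 in the whole spleen samples. On the side of *Scn7a* it was *Gm21830*, which had 0 counts.

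**Figure D3:**
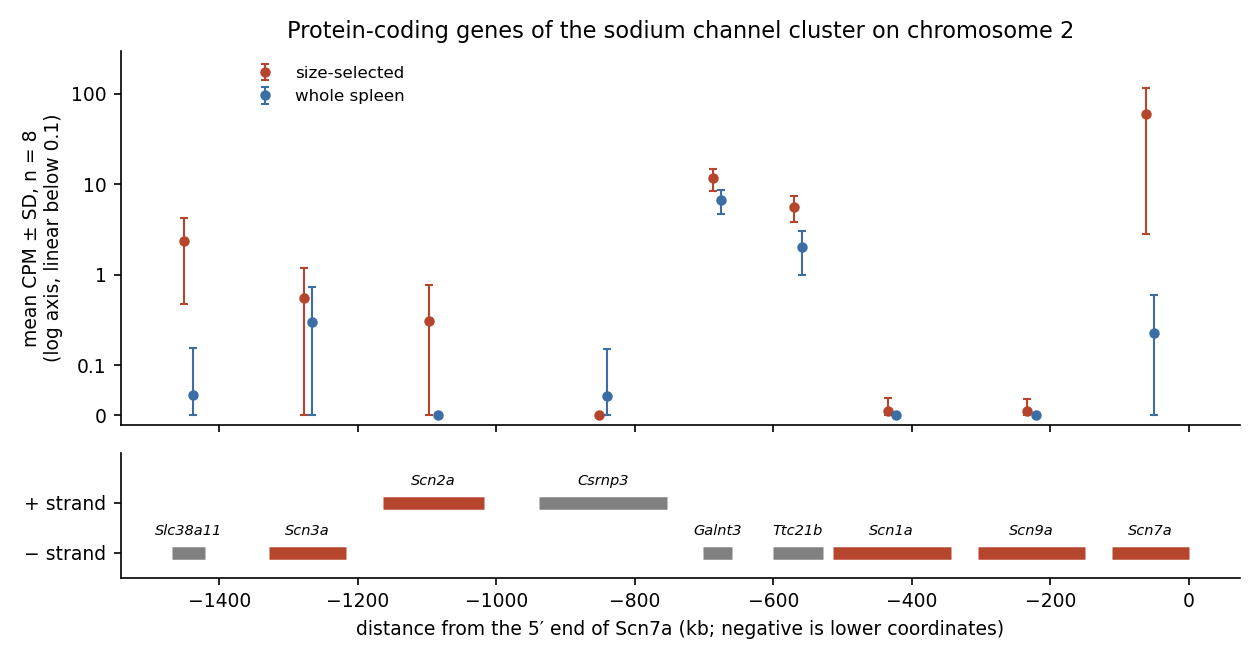
Top, mean CPM ± SD (n = 8, log axis that is linear below 0.1) of the protein-coding genes of the chromosome 2 cluster in size-selected (red) and whole spleen (blue) samples, with lower bars that would pass 0 drawn to 0. Bottom, gene positions by strand in kb from the 5′ end of *Scn7a*, with members in red; *Scn7a* at 59.3 CPM lies next to *Scn9a* and *Scn1a*, which had 1 count each.

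The 250 bases before the start of *Scn7a* and of *Scn9a* are shown because these neighbours on 1 strand had 8054 counts and 1 count in the size-selected group. They are RefSeq windows on GRCm38.p6, printed on the gene's strand, and capitals mark the SOX core motif.
Scn7a, chr2:66784911-66785160, minus strand: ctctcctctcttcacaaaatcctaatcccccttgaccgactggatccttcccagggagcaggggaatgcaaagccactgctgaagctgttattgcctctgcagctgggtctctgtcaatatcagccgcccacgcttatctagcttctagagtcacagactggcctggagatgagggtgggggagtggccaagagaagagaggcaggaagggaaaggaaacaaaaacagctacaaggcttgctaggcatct
Scn9a, chr2:66634963-66635212, minus strand: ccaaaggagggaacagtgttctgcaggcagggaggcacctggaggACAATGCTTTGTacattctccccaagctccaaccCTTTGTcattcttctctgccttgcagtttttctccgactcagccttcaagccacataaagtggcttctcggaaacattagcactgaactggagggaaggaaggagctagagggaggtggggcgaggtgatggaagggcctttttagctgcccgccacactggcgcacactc
The SOX core (ACAAAG or ACAATG, either strand) had 0 matches in the *Scn7a* window and 3 in that of *Scn9a*, and 25.2% of 32851 such windows have at least 1. The TATA box (TATAAA, either strand) had 0 matches in both, against 12.4% of windows. The E-box (CANNTG, the same on both strands, which can share letters with a SOX core and was counted on its own) had 1 match in each, against 66.2% of windows. GC content was 53.2% for *Scn7a* and 54.4% for *Scn9a*, near the median of 52.4% over all windows. The letters of these windows describe the sequence only. Windows of 6 members were found, and *Scn3a* and *Scn3b* were not matched.

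Levels of different genes were compared as CPM per kb of the longest annotated transcript. In the size-selected samples *Scn7a* led the members at 8.08 ± 7.71 CPM per kb (SD, n = 8), with a lowest sample of 3.04. *Scn4b* at 1.38 ± 0.653, *Scn3b* at 1.15 ± 0.373 and *Scn4a* at 0.76 ± 0.291 CPM per kb followed. *Scn4b* and *Scn3b* differed by less than their spread, and the ranges of *Scn3b* (0.534 to 1.71) and *Scn4a* (0.135 to 1.11) overlapped. *Scn3a* (0.0576 ± 0.0671), *Scn2a* (0.0348 ± 0.0503), *Scn1a* and *Scn9a* came last. In whole spleen the order was led by *Scn4a* at 1.53 ± 0.436 CPM per kb, with *Scn4b* at 0.206 ± 0.123 and *Scn3b* at 0.0596 ± 0.0757. *Scn3a* (0.0316 ± 0.0447) and *Scn7a* (0.0309 ± 0.0513) differed there by less than their spread.

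The alpha subunit RNA therefore had a different leading gene in each group. Of the summed per-length level of the 10 alpha subunit genes of the family, *Scn7a* held 80.5 ± 9.27% in the size-selected samples (SD, n = 8), from 68.6 to 95.2%. *Scn4a* held 11.2 ± 6.69%, from 1.37 to 20.4%. In whole spleen *Scn4a* held 90.1 ± 7.48%, from 79.1 to 99.4%, and *Scn7a* 2.13 ± 3.83%, with a highest sample of 11%. The ranges of the 2 leading genes did not overlap between the groups. With the constants divided out the size-selected shares were 78.6% for *Scn7a* and 13.4% for *Scn4a*.

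**Figure D4:**
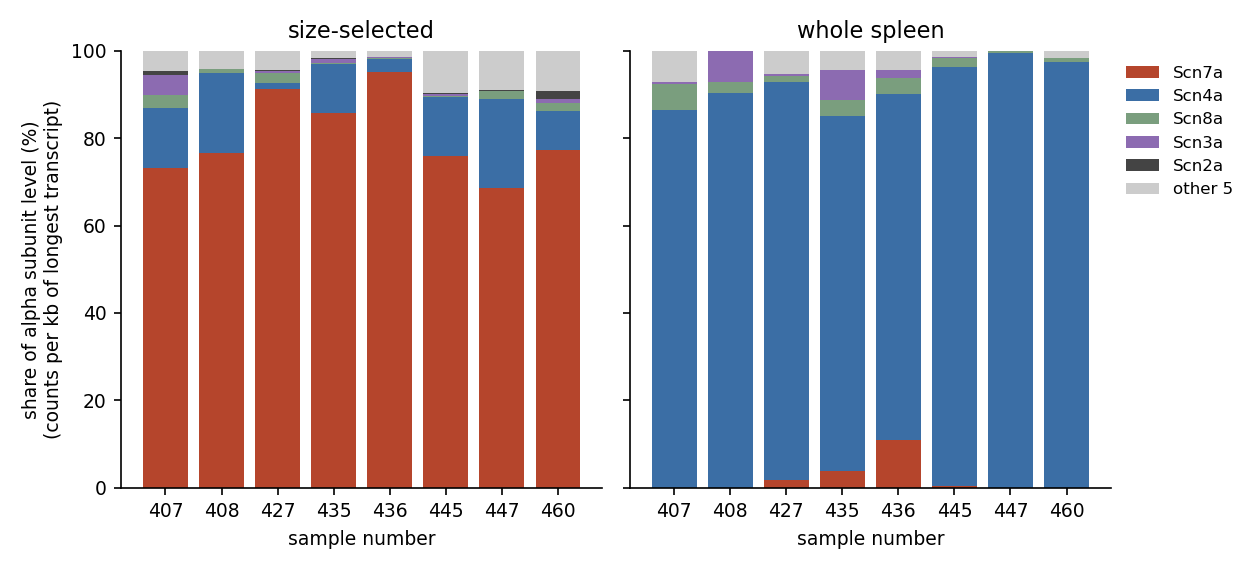
Share (%) of the summed level of the 10 alpha subunit genes (counts per kb of the longest transcript) held by each gene, 1 bar per sample by sample number, size-selected left and whole spleen right. *Scn7a* (red) holds 68.6 to 95.2% of each size-selected bar and *Scn4a* (blue) 79.1 to 99.4% of each whole spleen bar.

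Among other genes of the family, *Scn2b*, a beta subunit gene, and the alpha subunit genes *Scn8a*, *Scn10a* and *Scn11a* were short of the filter and not called without it. *Scn8a*, the alpha subunit of mature nodes of Ranvier, differed by 1.07 on the log2 scale (SE 0.52, adjusted p = 0.102 by edgeR), and *Scn2b* by 0.9 (SE 0.74, adjusted p = 0.335).

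Of 15 genes that anchor sodium channels or regulate them at the membrane, 7 passed the filter and 8 did not. Of the 7, 6 rose, where 37.5% of all genes tested did, and 1 fell, with a median log2 fold change of 2.95 against 0.05 for all genes tested. Genes near 0 in whole spleen, *Ank3* among them, could pass the filter only through the size-selected group, so this count leans upwards. Of the 8 short of it, *Sptbn4* (log2 fold change -0.97) and *Cntn1* (1.31) were not called in the fit without a filter, and the rest were called higher. *Ank3*, the ankyrin that holds channels at nodes and axon initial segments, rose by 6.78 on the log2 scale (SE 0.46, edgeR adjusted p = 6.72e-10), from 0.147 ± 0.145 to 17.5 ± 8.72 CPM. *Nfasc*, an adhesion molecule of nodes, rose by 3.43 (SE 0.5) and *Nedd4*, a ubiquitin ligase gene, by 3.0 (SE 0.2). *Nedd4l*, whose ligase is the one best known for removing sodium channels from the membrane, rose by 0.36 (SE 0.12, adjusted p = 0.0132). *Fgf13*, whose product binds alpha subunits, fell by 0.47 on the log2 scale (adjusted p = 0.0419).

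Of 10 genes of sodium pumps and other sodium transport, 9 passed the filter, 6 rose (37.5% of all genes tested rose), 2 fell (30.4% of all fell) and 1 was not called, and their median log2 fold change was 1.51. *Atp1b2*, a pump beta subunit known from glia, rose by 3.96 on the log2 scale (SE 0.34, edgeR adjusted p = 9.32e-09). *Slc8a1*, a sodium and calcium exchanger, rose by 1.56 (SE 0.25). *Atp1b1* fell by 0.8 (SE 0.19) and *Atp1b3* by 0.37 (SE 0.08) on the log2 scale.

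Whether members followed cell type markers from sample to sample was asked in the 8 size-selected samples. The 4 members past the filter were set against scores of 6 marker lists, each the mean log2 CPM of its genes past the filter (11 of 14 for glia, 5 of 10 for neurons, all of the other lists), which gave 24 relations. *Scn7a* rose with the glia score (Pearson r = 0.93, exact permutation p = 0.00208, adjusted p = 0.0339; Spearman rho = 0.83, exact p = 0.0154, adjusted p = 0.105). *Scn3b* rose with the endothelial score (r = 0.93, exact permutation p = 0.00283, adjusted p = 0.0339; rho = 0.6, exact p = 0.132, adjusted p = 0.363) and with the mural score (r = 0.87, exact permutation p = 0.00513, adjusted p = 0.0411; rho = 0.81, exact p = 0.0218, adjusted p = 0.105). The remaining 21 did not pass by Pearson's r, and none of the 24 passed by Spearman's rho.

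None of the 3 kept its call when the 2 samples farthest from the median score were left out. Those 2 were the highest for glia, the lowest for mural cells, and the lowest and highest for endothelium. Without the 2 samples farthest from the median score, r was 0.66 for *Scn7a* with glia (exact permutation p = 0.163), 0.81 for *Scn3b* with endothelium (exact p = 0.158) and 0.88 for *Scn3b* with mural cells (exact p = 0.0264, adjusted p = 0.117). For *Scn3b* with mural cells r was no lower than the 0.87 over all 8 samples. For the relations whose r fell, a smaller number of samples (6) and the loss of these particular samples cannot be told apart. Sample 436 was highest both in *Scn7a* and in the glia score. Sample 427 was highest both in *Scn3b* and in the endothelial score, and sample 408 was lowest in both.

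**Figure D5:**
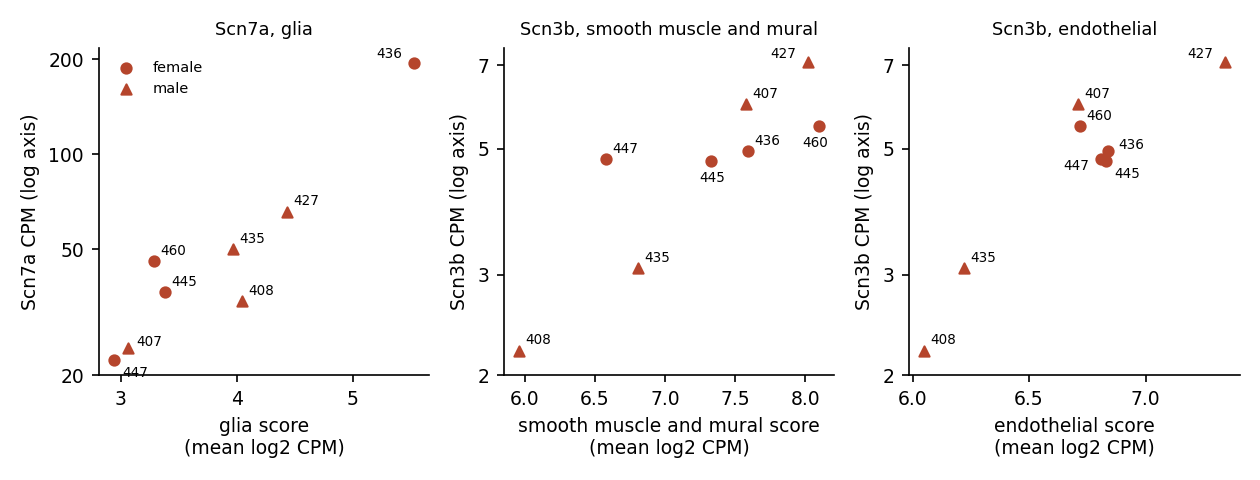
CPM (log axis) of *Scn7a* against the glia score and of *Scn3b* against the mural and endothelial scores (mean log2 CPM of the list) in the 8 size-selected samples, labelled by sample number, circles female and triangles male. Sample 436 stands alone at the top for *Scn7a*, and samples 408 and 427 mark the ends for *Scn3b* against the endothelial score.

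The genes whose log2 CPM was most like a member over the 8 size-selected samples were listed by Pearson's r among about 10104 candidates, as a description. For *Scn7a* they were *Abca8a* (r = 0.992), *Kctd11* (0.975) and *Ncam1* (0.959), the last a cell adhesion gene on the glia list. For *Scn3b* they were *Dse* (0.991), *2510009E07Rik* (0.987) and *Pcdhb14* (0.985). For *Scn4b* they were *Il22ra2* (0.945), *Adap1* (0.926) and *Slc29a4* (0.925), and for *Scn4a* they were *Slco4a1* (0.995), *Stk4* (0.989) and *Lax1* (0.989). Among the members themselves *Scn3b* and *Scn4b* had r = 0.71, *Scn4a* and *Scn3b* had r = -0.66, and *Scn7a* and *Scn3b* had r = 0.13. These points share libraries and their cell composition. Sample 427 stood far below the others in *Scn4a* and was the highest in *Scn3b*, and sample 436 stood far above the others in *Scn7a*. One such sample can set much of an r over 8, and r without them was not computed.

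Whether members differed by sex was asked in the size-selected samples and as an interaction of sex and fraction. None of the 4 members tested by sex or of the 5 tested for the interaction (these 4 and *Scn3a*) was called, and the others were short of the count filter. In the size-selected samples edgeR called 6 of 15127 genes (0.0397%), and 632 had an unadjusted p under 0.05. The female minus male log2 difference was 0.77 for *Scn7a* (95% interval -0.6 to 2.13), -0.15 for *Scn4b* (-1.09 to 0.78), 0.12 for *Scn3b* (-0.64 to 0.88) and 0.22 for *Scn4a* (-0.92 to 1.35). The *Scn7a* difference turned to -0.34 without sample 436.

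The interaction was called for 0 of 15760 genes by edgeR (0.0%), with 744 at an unadjusted p under 0.05, and for 3 by DESeq2. The interaction fit had low power on simulated data of this size, so the lack of calls does not show that the sexes were alike. *Scn3b* had the largest value among the members: its fraction difference was 3.62 greater in females on the log2 scale (95% interval 1.54 to 5.71), with an unadjusted p of 0.00197 and an adjusted p of 1.0 by edgeR, and an adjusted p of 0.383 by DESeq2. The gap lay in whole spleen, where the 4 males had 25 counts together and the 4 females 2, both in number 445. The value was 5.99 without number 445 and 2.9 without number 435. The size-selected means were 4.59 ± 2.32 CPM in males and 4.99 ± 0.336 CPM in females (SD, n = 4 each).

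In whole spleen, low counts of 3 subunit genes, picked after the values were seen, lay mostly in the male samples. *Scn3a* had 29 counts in the 4 males (1, 13, 1 and 14) and 4 in the 4 females. *Scn3b* had 25 counts in the males (4, 6, 2 and 13) and 2 in the females, and *Scn2b*, a beta subunit gene 8.32 kb from *Scn4b*, had 19 in the males (5, 1, 5 and 8) and 0 in the females. A test of sex in the 8 whole spleen samples was added after these counts were seen. Without a count filter edgeR called 273 of 24143 genes (1.13%), and 12.5% had an unadjusted p under 0.05. None of the 3 was called: edgeR p was 0.0249 for *Scn3a* (adjusted p = 0.313), 0.0105 for *Scn3b* (adjusted p = 0.218) and 0.00197 for *Scn2b* (adjusted p = 0.0995). By DESeq2 their p-values were 0.0379, 0.015 and 0.00491, with no adjusted p given. In the size-selected samples *Scn2b* was between 4 and 8 counts in the males and between 1 and 8 in the females. Besides *Scn3a* and *Scn3b*, the members with whole spleen counts had more of them in the females. These were *Scn4a* (657 in females, 478 in males), *Scn4b* (62 and 50) and *Scn7a* (16 and 9).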

How the data were processed

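Per the submitters' processing notes, Trim Galore, STAR, RSEM and DESeq were used with build mm10; versions, roles and annotation are not given in the sources used here. The authors deposited estimated counts per gene. In size-selected columns, 3898 genes carry multiplied values, found from the values. The authors' deposited table of their own comparison holds, per the file headers, a mean signal, log2 fold changes and their standard errors, a score (the test statistic), p-values, and group means in TPM and FPKM; only its fold changes, standard errors and TPM are printed.

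Counts were rounded, filtered (filterByExpr, minimum count 10), scaled (TMM) and tested in edgeR 4.0.16 (R 4.3.3) over all 16 samples with group as the only term; the threshold was a Benjamini-Hochberg adjusted p of 0.05. CPM use TMM-scaled totals of the tested genes. Standard errors were obtained from the log2 fold change and its F statistic. Numbers pair the samples: deviations of same-numbered samples correlated at r 0.12 to 0.38 over 14510 genes, against a mean of -0.03 for other numbers. Of 54838 gene IDs, 54723 were in GENCODE M21. Fits were tested on simulated data. Limits of 3 counts cover counting error only.

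Members and lists were chosen with earlier results of these data known. Named genes are all members, the 3 largest changes of 2 pathway lists, the 3 genes most like each tested member, and genes of the cluster. *Scn8a*, *Scn2b*, *Fgf13*, *Nedd4l*, *Sptbn4*, *Cntn1*, *Atp1b1*, *Atp1b3*, marker genes and neighbours of *Scn4a*, *Scn3b* and *Scn4b* were added after their values were seen. The promoters and motifs shown were added in the same way. Alternatives were RLE scaling, no filter, DESeq2 1.42.0, limma-voom (limma 3.58.1), the replicate block, restored counts (constants divided out), a prior count of 0.5 in place of 2, exon-union lengths and leaving out each number. Some genes that the naming rule takes are not reported here.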

Additional observations from a re-analysis of the deposited data

Results flagged for a closer look

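In 11 groups of 8 values screened for a sample far from the others, 1 was found, where chance would give about 0.55. *Scn4a* in size-selected sample 427 had a log2 CPM of -0.01 (0.889 CPM), and the other 7 samples lay between 2.07 and 2.9. The distance to its closest neighbour made up 0.716 of the range of all 8 values. The summed B cell and T cell markers of this sample were also the lowest of the group, at 705.1 and 150.2 CPM, and their part in the low value was not tested.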

How the results depend on the processing

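Every call of *Scn7a*, *Scn4a*, *Scn3b*, *Scn4b* and *Scn2a* between fractions was kept under each alternative run for it. With each number left out, the log2 fold change was 7.84 to 8.5 for *Scn7a*, 4.02 to 5.03 for *Scn3b*, 2.56 to 2.98 for *Scn4b*, -1.14 to -0.83 for *Scn4a* and 4.24 to 5.47 for *Scn2a*; the fitted value of *Scn2a*, which has no whole spleen count, was 5.28 and fell to 2.46 in limma-voom. With the replicate block, *Scn4a* was -1.06 (adjusted p = 0.00787), no member's call changed, and the interaction was called for 3 genes, none of them members; DESeq2 also called 3, and leaving out each number called 0 to 1. For sex in the size-selected samples DESeq2 called 22 genes against 6, and leaving out each number 5 to 6. *Scn11a* was called only without number 407 (4.37). Uncalled values changed sign: the *Scn4a* interaction was 0.04 with RLE scaling and DESeq2, 0.25 with the replicate block and -0.46 to 0.35 with each number left out, where the *Scn7a* interaction was -0.84 to 2.23 and that of *Scn4b* -0.73 to 0.19. The *Scn3b* interaction kept its sign, at 2.9 to 5.99. Sex differences ranged, in the same way, from -0.13 to 0.57 for *Scn4a*, -0.34 to 1.07 for *Scn7a*, -0.09 to 0.36 for *Scn3b* and -0.37 to 0.32 for *Scn4b*. Without the 2 samples farthest from the median score, r was 0.66 (*Scn7a*, glia), 0.88 and 0.81 (*Scn3b*, mural and endothelial), 0.64, 0.18 and 0.5 (*Scn4a*, glia, mesothelial and neuron), -0.5 (*Scn3b*, neuron) and -0.8 (*Scn4b*, neuron); 2 fewer samples entered these, and the cause of the other changes was not tested. Depth limits *Scn1a*, *Scn9a*, *Scn2a* and *Scn3a*, for which 3 counts in 1 library are 0.15 to 0.247 CPM.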
